A study of Mus musculus with 4 samples.

Results

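Monocytes leave the blood for an inflamed peritoneal cavity and become macrophages there, and 9 genes known from these cells were followed in peritoneal macrophages with and without Dnmt1: Ly6c2, Plac8, F13a1, F10, Irf4, Nr4a1, Itgax, Flt3 and Cd209a. They were chosen by gene symbol as markers of recruited monocytes and of the macrophages that these form, and all 9 were found among the 13834 genes of the count table. RNA had been sequenced from 4 samples of peritoneal macrophages, 2 from Dnmt1fl/fl mice and 2 from Dnmt1KO mice. The labels call the controls wt, and the methods of the study give both genotypes the floxed Dnmt1 allele (B6.129S4-Dnmt1tm2Jae/Mmucd), with Cre recombinase driven by the LysM promoter in Dnmt1KO mice alone. This promoter is active in macrophages, neutrophils and part of the monocytes, so the deletion was not limited to a single cell type. For the isolation of peritoneal macrophages the methods name mice of 10 weeks, an injection of 2 ml of 4% thioglycolate broth 3 days earlier and culture after the lavage, in both genotypes. The broth draws monocytes and other leukocytes into the cavity. Whether the samples of a genotype came from separate mice is not stated, so p-values measured the spread between these samples, which may be technical.

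In the mouse, Ly6C-high monocytes are the classical inflammatory kind. Once in the peritoneum they lose Ly6C and turn into small macrophages that carry MHC class II, or into cells resembling dendritic cells, for which the factor IRF4 is required. Resident large macrophages are a separate population that depends on GATA6. A recruited population therefore holds cells at different stages, and the genes below mark different stages of it. In RNA from a whole population, fewer cells of a stage and less RNA per cell cannot be told apart.

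Total counts were between 20228071 and 24198943 per sample, and values below are CPM, the counts of a gene relative to the library total, after scaling between samples with TMM factors of 0.91 to 1.04. Dnmt1 itself, the gene targeted in these mice, was at 86.6 and 67.0 CPM in Dnmt1fl/fl replicates 1 and 2 and at 37.0 and 42.7 CPM in Dnmt1KO replicates 1 and 2, a log2 fold change of -0.95 (standard error 0.24, unadjusted p = 0.00839, adjusted p = 1.00, edgeR). Macrophage genes were expressed in every sample, with Adgre1 (F4/80) at 700.4 to 986 CPM and Fcgr1 at 184 to 334 CPM. They were not all level between the genotypes. Lyz2 was at 29530 and 28590 CPM in Dnmt1fl/fl and at 11350 and 15740 CPM in Dnmt1KO. Of the 10 tested genes of a macrophage identity list, 5 had a log2 fold change above and 5 below 0. The libraries were not alike in other leukocyte transcripts. The summed level of the 10 tested neutrophil markers was 236 to 343 CPM in 3 samples and 951 CPM in Dnmt1KO replicate 1, and all 10 were highest in that sample. The 10 B cell markers summed to 425, 570.1 and 654 CPM in the other 3 samples and to 189 CPM in Dnmt1KO replicate 1. Of the neutrophil list, Ngp, Camp and Stfa2 are not among the genes of the table, and Ly6g did not pass the filter on low counts. Dnmt1KO replicate 1 was the lowest sample in 39.6% and the highest in 38.8% of all 12542 genes tested.

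No difference between the genotypes was detected for any of the 9 genes. Their Dnmt1KO and Dnmt1fl/fl samples overlapped in 9 of 9, whereas the genotypes did not overlap in 16.7% of all genes tested. By edgeR's quasi-likelihood test, 0 of the 9 had an adjusted p under 0.05, as did 0% of all genes, and 0 of the 9 had an unadjusted p under 0.05, which 0.279% of all genes had. DESeq2 and limma-voom also called 0 of the 9, and over all genes they called 1 (Pagr1a) and 0. The median log2 fold change of the 9 was -0.00355, against 0.00457 over all genes tested, and 5 of the 9 were below 0, as were 49.1% of all genes. With library totals in place of TMM, F10 and Itgax also were below 0. The log2 fold change was smaller than the pooled SD between replicates in 8 of the 9, with Nr4a1 the exception, and in 75.8% of all genes. In 7 of the 9 the highest and the lowest value were both those of Dnmt1KO samples, against 39.6% of all genes, and in 8 of the 9 the Dnmt1KO pair was further apart than the Dnmt1fl/fl pair, as in 74.9% of all genes.

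**Figure D1:**
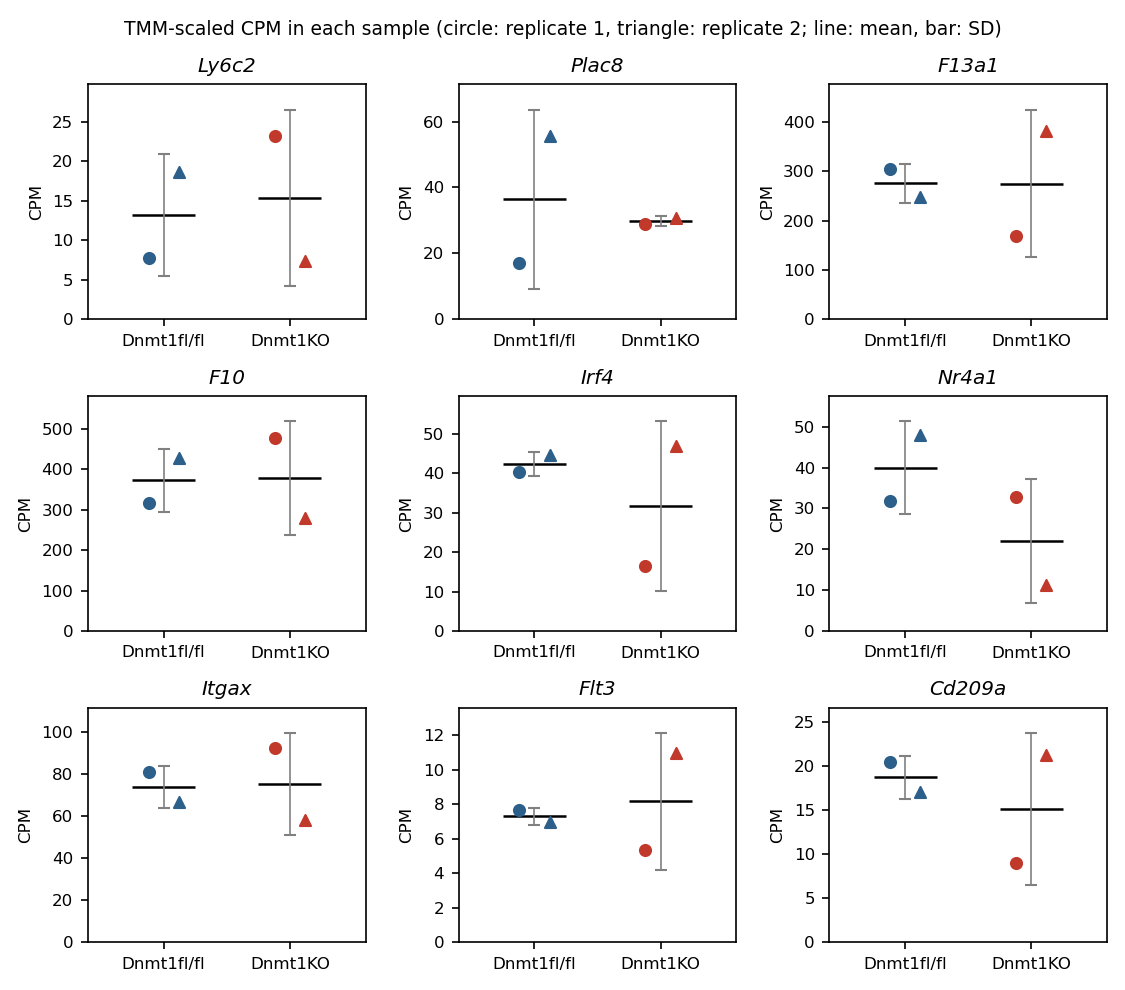
CPM of each of the 9 genes (vertical axes, from 0) in the Dnmt1fl/fl (blue) and Dnmt1KO (red) samples, with circles for replicate 1, triangles for replicate 2, a line at the mean and a bar for the SD (n = 2 per genotype). The genotypes overlap in every panel, and in Irf4 the Dnmt1KO samples lie at 16.4 and 46.9 CPM around Dnmt1fl/fl samples at 40.2 and 44.6 CPM.

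Ly6c2 encodes a GPI-anchored surface protein and is the gene by which classical monocytes are recognised. It lies on chromosome 15 from 75108158 to 75111970 (GRCm38), on the minus strand, near its close copy Ly6c1 from 75044018 to 75048830. The coding sequences of the pair, both 396 bases long, differ at 9 bases and are 97.7% identical. Their opening 240 bases, from GENCODE M21 transcripts, are shown because reads of these genes are hard to tell apart, with capitals at the 6 bases that differ in this stretch:
Ly6c2: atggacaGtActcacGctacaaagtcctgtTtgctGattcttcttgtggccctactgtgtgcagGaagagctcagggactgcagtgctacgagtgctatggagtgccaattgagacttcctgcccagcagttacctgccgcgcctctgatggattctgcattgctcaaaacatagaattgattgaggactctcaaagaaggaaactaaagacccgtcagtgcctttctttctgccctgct
Ly6c1: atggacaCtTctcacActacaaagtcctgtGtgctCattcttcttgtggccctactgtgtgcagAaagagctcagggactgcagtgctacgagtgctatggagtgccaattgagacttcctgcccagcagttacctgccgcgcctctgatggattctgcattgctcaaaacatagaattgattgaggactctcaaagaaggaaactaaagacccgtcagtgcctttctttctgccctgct
After the last of these capitals the printed bases are the same in both genes. Over their whole annotated transcripts, 159 of the 2737 stretches of 100 bases in Ly6c2 (5.81%) are also found in Ly6c1. The deposited counts carry a trace of this. Ly6c2 had fractional counts in all 4 samples, 159.8 and 469.23 in Dnmt1fl/fl and 461.47 and 175.63 in Dnmt1KO, and Ly6c1 had 16.2, 77.77, 55.53 and 22.37. The sums of the pair were whole numbers in every sample to within 0.01 counts, at 176, 547, 517 and 198. Among the other 13833 genes of the table, Ly6c1 was the 1 gene that completed Ly6c2 in this way. Of the summed reads, 85.8% to 90.8% were given to Ly6c2.

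Ly6c2 was at 7.80 and 18.7 CPM in Dnmt1fl/fl replicates 1 and 2, or 13.2 ± 7.71 CPM (SD, n = 2), and at 23.3 and 7.46 CPM in Dnmt1KO replicates 1 and 2, or 15.4 ± 11.2 CPM (SD, n = 2). Each genotype thus held 1 sample with a high and 1 with a low value, and the Dnmt1fl/fl samples lay between the Dnmt1KO samples. The log2 fold change was 0.21 (standard error 0.65, 95% confidence interval -1.40 to 1.82, adjusted p = 1.00, edgeR). With the reads of Ly6c2 and Ly6c1 added together, a value that does not depend on how they were divided, the samples were at 8.57 and 21.8 CPM in Dnmt1fl/fl and 26.1 and 8.39 CPM in Dnmt1KO, in the same order, with a log2 fold change of 0.18 (standard error 0.66). Leaving out Dnmt1KO replicate 1 gave -0.84 and leaving out Dnmt1KO replicate 2 gave 0.81, so the direction rested on which sample was kept.

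Plac8 encodes a small cysteine-rich protein that is abundant in monocytes and lies on chromosome 5 from 100553725 to 100572245. It was at 17.1 and 55.6 CPM in Dnmt1fl/fl replicates 1 and 2 and at 28.8 and 30.9 CPM in Dnmt1KO replicates 1 and 2. Here the spread was in the controls, which were 3.24-fold apart, and both Dnmt1KO samples fell between them at 1.07-fold from each other. Dnmt1KO over Dnmt1fl/fl gave a log2 fold change of -0.29 (standard error 0.53, 95% confidence interval -1.61 to 1.03, adjusted p = 1.00, edgeR). It was -0.90 without Dnmt1fl/fl replicate 1 and 0.80 without Dnmt1fl/fl replicate 2.

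F10 and F13a1 encode coagulation factors that monocytes and macrophages make outside the liver. Factor X, the product of F10, is the protease zymogen that, once activated, turns prothrombin into thrombin, and factor XIII A, the product of F13a1, is the transglutaminase that crosslinks fibrin. F10 lies on chromosome 8 from 13037308 to 13056676, next to F7 (13026034 to 13035809), which encodes factor VII, and F13a1 lies on chromosome 13 from 36867178 to 37050244. F10 was at 318 and 428 CPM in Dnmt1fl/fl and at 478 and 279 CPM in Dnmt1KO replicates 1 and 2. As for Ly6c2, Dnmt1KO replicate 1 was the highest and Dnmt1KO replicate 2 the lowest sample. The log2 fold change of F10 was 0.02 (standard error 0.34, 95% confidence interval -0.83 to 0.87, adjusted p = 1.00, edgeR).

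F10 too had fractional counts in all 4 samples, and F7 was the 1 gene of the other 13833 whose counts completed them to whole numbers, at 13979, 16839, 16328 and 13365. The transcripts of F10 and F7 in GENCODE M21 share 0 stretches of 100 bases and have 0 exon bases at the same position, so this annotation does not show where reads would be ambiguous. F10 was given 46.7% and 63.8% of the summed counts in Dnmt1fl/fl and 58% and 49.2% in Dnmt1KO. With F10 and F7 added, the samples were at 681 and 671 CPM in Dnmt1fl/fl and at 824 and 566 CPM in Dnmt1KO (log2 fold change 0.04, standard error 0.28). The Dnmt1KO samples were again on either side of the controls, and the controls, 1.35-fold apart in F10 alone, were close together in the sum.

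**Figure D2:**
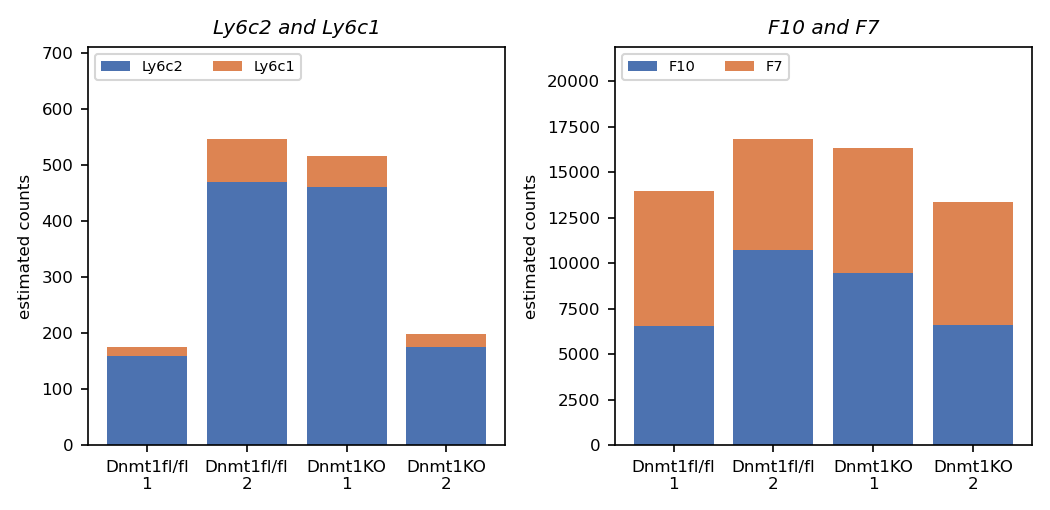
Estimated counts as deposited (vertical axes) of Ly6c2 with Ly6c1 (left) and F10 with F7 (right), stacked for each of the 4 samples. The stacked heights are whole numbers, 176, 547, 517 and 198 on the left, and in the right panel F10 (blue) takes 46.7% to 63.8% of them.

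F13a1 ran the other way. It was at 304 and 248 CPM in Dnmt1fl/fl replicates 1 and 2, or 276 ± 39.5 CPM (SD, n = 2), and at 169.5 and 381 CPM in Dnmt1KO replicates 1 and 2, or 275.5 ± 150 CPM (SD, n = 2). The means were nearly equal, and the log2 fold change was -0.0035 (standard error 0.41, 95% confidence interval -1.03 to 1.02, adjusted p = 1.00, edgeR). Dnmt1KO replicate 1 was the lowest and Dnmt1KO replicate 2 the highest of the 4 samples. Among the 16 genes tested of a coagulation list, which holds F10 and F13a1 and also tissue factor (F3), the urokinase system and annexin A2, 0 had an unadjusted p under 0.05, 8 were above and 8 below 0, and 3 had both Dnmt1KO samples below both controls, against 8.56% of all genes. Among these was Serpinb2, the plasminogen activator inhibitor of macrophages, at 53.2 and 48.5 CPM in Dnmt1fl/fl and 15.8 and 36.8 CPM in Dnmt1KO (log2 fold change -0.95, standard error 0.41, unadjusted p = 0.0635, adjusted p = 1.00, edgeR). Counts of Serpinb2 were fractional in the Dnmt1fl/fl samples and in Dnmt1KO replicate 2, so its reads may be shared with another gene. F3 was at 3.99 and 3.51 CPM in Dnmt1fl/fl and 2.32 and 1.06 CPM in Dnmt1KO (log2 fold change -1.15, standard error 0.5, adjusted p = 1.00, edgeR).

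Irf4, Cd209a and Flt3 ran in the same direction as F13a1. IRF4 is a transcription factor needed for monocytes to become cells resembling dendritic cells and for alternative activation of macrophages, and it is also used by B cells and plasma cells. Irf4, on chromosome 13 from 30749226 to 30766976, was at 40.2 and 44.6 CPM in Dnmt1fl/fl replicates 1 and 2 and at 16.4 and 46.9 CPM in Dnmt1KO replicates 1 and 2. The controls were 1.11-fold and the Dnmt1KO samples 2.86-fold apart, with Dnmt1KO replicate 1 alone below the rest. Over all 4 samples the log2 fold change was -0.42 (standard error 0.48, 95% confidence interval -1.62 to 0.78, adjusted p = 1.00, edgeR). Without Dnmt1KO replicate 2 it was -1.37 with an adjusted p of 0.00603 (edgeR), a fit in which 8.32% of all 12754 genes tested were called, and without Dnmt1KO replicate 1 it was 0.14. In both of these fits the lone Dnmt1KO sample was assumed to vary like the controls.

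Cd209a encodes a C-type lectin of the DC-SIGN family that monocytes acquire as they turn into cells resembling dendritic cells, and it lies on chromosome 8 from 3743397 to 3748984. It was at 20.4 and 17.0 CPM in Dnmt1fl/fl and at 9.04 and 21.2 CPM in Dnmt1KO replicates 1 and 2. Again the low value was that of Dnmt1KO replicate 1. In the fit of all samples, the log2 fold change was -0.30 (standard error 0.43, 95% confidence interval -1.38 to 0.77, adjusted p = 1.00, edgeR), -1.05 without Dnmt1KO replicate 2 (adjusted p = 0.0367, edgeR) and 0.18 without Dnmt1KO replicate 1. Cd209a carried most of the reads of its family. Of 9 genes listed, 6 were in the table and 4 were tested, and the lectin gene Cd209c, for example, was at 0.253 to 1.95 CPM, where 3 counts correspond to 0.12 to 0.151 CPM, counting error only.

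Flt3, the receptor for the FLT3 ligand that sustains dendritic cells and their precursors, lies on chromosome 5 from 147330741 to 147400489. It had the lowest mean over the 4 samples of the 9 genes, 7.73 CPM, with 7.65 and 6.94 CPM in Dnmt1fl/fl and 5.35 and 11.0 CPM in Dnmt1KO replicates 1 and 2. In Dnmt1KO replicate 2 Ly6c2 was lower, at 7.46 CPM. Flt3 and F13a1 overlap annotated antisense genes, and without stated use of strand in counting their reads cannot be told apart. The log2 fold change of Flt3 was 0.17 (standard error 0.41, 95% confidence interval -0.86 to 1.19, adjusted p = 1.00, edgeR), 0.59 without Dnmt1KO replicate 1 and -0.44 without Dnmt1KO replicate 2. F13a1, Irf4, Cd209a and Flt3 were thus 4 of the 9 genes that were lowest in Dnmt1KO replicate 1 and highest in Dnmt1KO replicate 2, an order found in 20.3% of all genes tested. Summed over a list of 12 other dendritic cell genes, all tested, the level was 102 and 101 CPM in Dnmt1fl/fl and 54.3 and 132 CPM in Dnmt1KO, and 9 of the 12 were lowest in Dnmt1KO replicate 1. The B cell markers, at 189 CPM in that sample and 654 CPM in Dnmt1KO replicate 2, moved the same way, as Irf4 did. The part of B cells in these values was not tested.

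The promoters of these 4 genes, 250 bases before to 50 bases after the start of transcription as given by RefSeq for GRCm38.p6, are shown with CpG dinucleotides in capitals, since CpG is the site at which Dnmt1 maintains DNA methylation. All 4 run in the gene's own direction, 5′ to 3′, and cover chr13:37050195-37050494 (minus strand) for F13a1, chr13:30748983-30749282 (plus) for Irf4, chr8:3748935-3749234 (minus) for Cd209a and chr5:147400440-147400739 (minus) for Flt3:
F13a1: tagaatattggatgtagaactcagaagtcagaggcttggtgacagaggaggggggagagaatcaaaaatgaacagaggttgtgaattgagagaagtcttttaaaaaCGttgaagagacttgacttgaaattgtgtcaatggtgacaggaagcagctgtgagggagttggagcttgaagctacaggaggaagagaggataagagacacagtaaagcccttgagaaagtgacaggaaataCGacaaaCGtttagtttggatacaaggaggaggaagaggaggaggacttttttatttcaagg
Irf4: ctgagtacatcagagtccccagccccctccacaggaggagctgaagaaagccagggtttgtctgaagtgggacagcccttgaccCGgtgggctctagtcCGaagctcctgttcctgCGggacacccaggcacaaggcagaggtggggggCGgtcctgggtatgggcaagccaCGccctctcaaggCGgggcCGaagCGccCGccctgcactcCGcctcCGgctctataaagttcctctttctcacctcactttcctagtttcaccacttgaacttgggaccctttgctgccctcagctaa
Cd209a: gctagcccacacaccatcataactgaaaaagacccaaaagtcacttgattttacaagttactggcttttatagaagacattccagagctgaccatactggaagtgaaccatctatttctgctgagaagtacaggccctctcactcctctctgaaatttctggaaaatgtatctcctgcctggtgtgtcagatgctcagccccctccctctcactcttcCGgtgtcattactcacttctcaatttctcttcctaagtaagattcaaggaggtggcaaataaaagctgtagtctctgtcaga
Flt3: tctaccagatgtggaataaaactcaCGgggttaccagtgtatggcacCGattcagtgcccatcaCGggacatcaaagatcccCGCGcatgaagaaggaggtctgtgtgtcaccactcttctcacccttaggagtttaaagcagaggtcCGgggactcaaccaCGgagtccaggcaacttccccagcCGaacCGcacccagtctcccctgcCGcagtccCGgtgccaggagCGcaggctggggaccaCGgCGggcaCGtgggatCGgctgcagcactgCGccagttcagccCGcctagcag
They held 3, 11, 1 and 18 CpGs. These 4 genes shared their lowest and their highest sample, while the controls stood in the other order in Irf4. The median over all 32851 promoter windows of the same length was 7. The 9 genes ranged from 0 CpGs in Ly6c2 to 35 in Nr4a1, and 6.95% of all windows held at least 35. The window of Nr4a1 covers chr15:101266596-101266895 (plus). It lies inside the GENCODE interval of the gene, which begins at 101254269, and not at the start of that interval. Plac8, F10 and Itgax had 5 each. No methylation was measured in these samples.

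Of 7 motifs searched on both strands, 3 were found in the 9 promoters. The composite of PU.1 and IRF sites was in that of Cd209a, on the opposite strand at 9 bases before the start, and in 2.72% of all windows. The AP-1 motif TGANTCA was in that of Itgax and in 7.81% of all windows. The PU.1 core GAGGAAGT was in that of Ly6c2 at 2 places and in 3.2% of all windows. The promoter of Ly6c2 (chr15:75111922-75112221, minus strand) is printed with these places in capitals, because it was the marker with no CpG in this window:
Ly6c2: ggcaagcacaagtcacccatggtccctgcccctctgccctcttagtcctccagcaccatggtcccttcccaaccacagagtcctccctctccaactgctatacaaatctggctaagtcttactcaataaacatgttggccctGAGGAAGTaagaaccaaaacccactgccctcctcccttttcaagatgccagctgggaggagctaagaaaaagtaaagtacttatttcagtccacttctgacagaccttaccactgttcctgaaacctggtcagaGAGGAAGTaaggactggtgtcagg
No match was found in these windows for the interferon response element (3.44% of all windows), TTGCNNAA (C/EBP, 10.8%), AAAGGTCA (NR4A, 1.51%) or TGACGTCA (cAMP response element, 1.79%). For 3 of the 9 genes RefSeq gives a pair of windows, and the one nearest the GENCODE start was taken. The other window of Ly6c2, shifted by 34 bases, also held 0 CpGs and 2 PU.1 cores. That of F13a1, shifted by 1031 bases, held 5 CpGs and 1 PU.1 core, and that of Plac8, shifted by 9109 bases, held 9 CpGs and 1 C/EBP motif.

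Itgax encodes the integrin chain CD11c, which pairs with CD18 and rises as monocytes become macrophages or dendritic cells, and lies on chromosome 7 from 128129547 to 128150657. It was the steadiest of the 9 genes, at 81.0 and 66.7 CPM in Dnmt1fl/fl and 92.5 and 58.2 CPM in Dnmt1KO replicates 1 and 2, with 1.59-fold between the highest and the lowest sample. Between the genotypes, the log2 fold change was 0.03 (standard error 0.3, 95% confidence interval -0.71 to 0.77, adjusted p = 1.00, edgeR). Itgb2, which encodes its partner CD18, was at 1964 and 2460 CPM in Dnmt1fl/fl and 3176 and 1807 CPM in Dnmt1KO, and Itgam, which encodes CD11b, another chain that pairs with CD18, at 1785 and 2206 CPM in Dnmt1fl/fl and 2094 and 1758 CPM in Dnmt1KO. In both of these genes, too, the Dnmt1KO samples differed from each other more than their mean differed from that of the controls. Unlike Cd209a and Flt3, Itgax was highest in Dnmt1KO replicate 1.

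Nr4a1 encodes an orphan nuclear receptor on which the Ly6C-low patrolling monocytes depend and which is also an immediate early gene, switched on within the hour by handling or receptor signals. It lies on chromosome 15 from 101254269 to 101274795. Its level was 31.9 and 48.0 CPM in Dnmt1fl/fl replicates 1 and 2, or 39.9 ± 11.4 CPM (SD, n = 2), and 32.7 and 11.2 CPM in Dnmt1KO replicates 1 and 2, or 21.95 ± 15.2 CPM (SD, n = 2). Dnmt1KO replicate 2 stood alone at the low end, and Dnmt1KO replicate 1 lay just above the lower control, so the genotypes overlapped. The log2 fold change of -0.87 had the largest size of the 9 (standard error 0.52, 95% confidence interval -2.17 to 0.44, unadjusted p = 0.153, adjusted p = 1.00, edgeR). It was -0.29 without Dnmt1KO replicate 2 and -1.84 without Dnmt1KO replicate 1 (adjusted p = 0.242, edgeR), and Nr4a1 was the 1 gene of the 9 that was below 0 in all 4 fits with a sample left out. Of the 15 genes of a list of NR4A and immediate early genes, Nr4a1 included, 11 were lowest in Dnmt1KO replicate 2, a sample that was lowest in 25.7% of all genes. The same list had a median log2 fold change of -0.15, or -0.56 without Dnmt1KO replicate 1 and 0.10 without Dnmt1KO replicate 2, and 0 genes with an unadjusted p under 0.05. Its most abundant members were Atf3, at 352.5 and 219 CPM in Dnmt1fl/fl and 339 and 194 CPM in Dnmt1KO, and Jun, at 279 and 261 CPM in Dnmt1fl/fl and 301 and 256 CPM in Dnmt1KO.

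**Figure D3:**
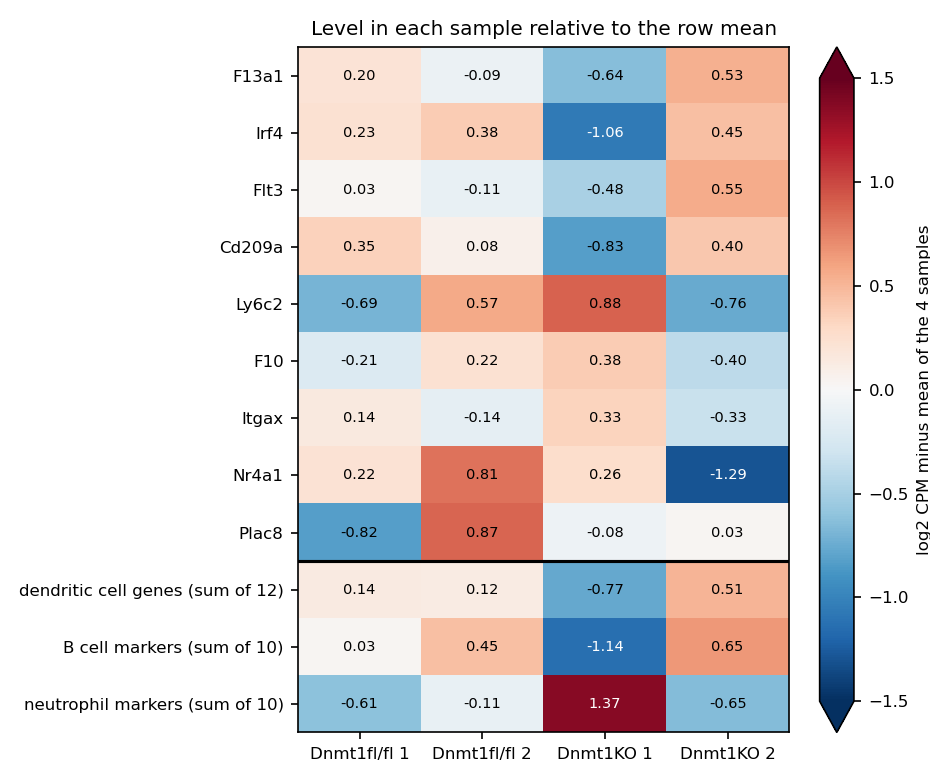
Level of the 9 genes and of 3 summed marker lists (rows) in each of the 4 samples (columns), as log2 CPM minus the row's mean, with red above and blue below it. In Dnmt1KO replicate 1, F13a1, Irf4, Flt3 and Cd209a are at -1.06 to -0.48 and the neutrophil list is at 1.37.

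**Figure D4:**
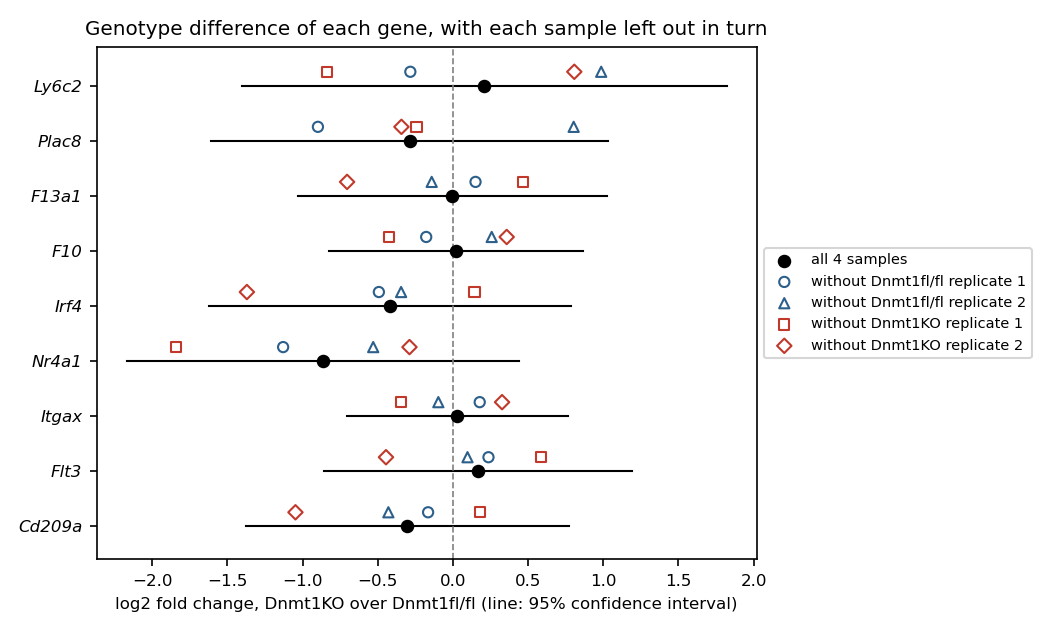
Log2 fold change of Dnmt1KO over Dnmt1fl/fl (horizontal axis) for each of the 9 genes, with black points and 95% confidence intervals from all 4 samples and open symbols from fits that left out the named sample. Every interval includes 0, and in 8 of the 9 genes the open symbols lie on both sides of 0.

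Levels of different genes were compared per kilobase of annotated exon (GENCODE M21). In this unit F10 was the highest of the 9 with a mean of 138 CPM per kilobase over the 4 samples (102 to 175), and no sample of it overlapped F13a1, at 40.9 (25.2 to 56.6). Plac8 followed at 20.8, Itgax at 15.5, Cd209a at 10.7, Nr4a1 at 8.82, Irf4 at 7.55 and Ly6c2 at 5.22 CPM per kilobase, and from F13a1 to Ly6c2 each gene's range over the samples overlapped that of the next. Flt3 was lowest at 1.25 (0.867 to 1.78), below every sample of Ly6c2. The place of Ly6c2 depends on the length taken, since its 2740 annotated bases include a transcript with a retained intron. Per kilobase of its 822-base coding transcript it was at 17.4. The level of F10 depends on how reads were divided with F7, since F10 was given 46.7% to 63.8% of their summed counts. For scale, Adgre1 was at 263 and Csf1r, the receptor for the macrophage growth factor, at 185 CPM per kilobase.

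The genes closest to Ly6c2 and Irf4 in their course over the samples were picked by the Euclidean distance of log2 CPM profiles, each centred on its own mean. With 4 samples this is a description only. Rsad2, an antiviral gene induced by interferon, was nearest to Ly6c2 (distance 0.0936) at 13.2 and 31.4 CPM in Dnmt1fl/fl and 38.5 and 11.6 CPM in Dnmt1KO, followed by Fbxl22 (0.0952), at only 0.339 to 1.16 CPM, and Ass1 (0.13), at 5.68 to 18.0 CPM. Nearest to Irf4 were Gdf11 (distance 0.0265), Ranbp6 (0.0326) and Rnf213 (0.0363). Gdf11 had 9 and 12 counts in Dnmt1fl/fl and 3 and 12 in Dnmt1KO, so its place rests on few reads. Ranbp6 was at 8.28 to 23.0 CPM, and Rnf213 was at 189 and 202 CPM in Dnmt1fl/fl and 75.4 and 214 CPM in Dnmt1KO.

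A wider list of 30 genes of monocytes and recruited macrophages, of which 29 were tested, was examined in the same way. By edgeR, 0 of the 29 had an adjusted or an unadjusted p under 0.05. The median log2 fold change was 0.02, 15 were above and 14 below 0, 2, Sirpb1c and Napsa, had both Dnmt1KO samples above both controls (8.14% of all genes had) and 1, Thbs1, had both below. The median ran from -0.37 without Dnmt1KO replicate 1 and -0.21 without Dnmt1fl/fl replicate 1 to 0.37 without Dnmt1KO replicate 2 and 0.47 without Dnmt1fl/fl replicate 2. The highest sample was Dnmt1fl/fl replicate 2 in 13 and Dnmt1KO replicate 1 in 13 of the 29, and the lowest was Dnmt1fl/fl replicate 1 in 15 and Dnmt1KO replicate 2 in 11. Over all genes tested, Dnmt1fl/fl replicate 2 was highest in 15.6% and Dnmt1KO replicate 1 in 38.8%, and Dnmt1fl/fl replicate 1 was lowest in 18.7% and Dnmt1KO replicate 2 in 25.7%. Hp, which encodes haptoglobin, was at 30.5 and 141 CPM in Dnmt1fl/fl and 275.5 and 34.5 CPM in Dnmt1KO, and S100a6, a calcium-binding protein gene, at 293 and 456.5 CPM in Dnmt1fl/fl and 932 and 292 CPM in Dnmt1KO. Fn1 (fibronectin), the most abundant of the list, was nearly level at 6411 and 5933 CPM in Dnmt1fl/fl and 6123 and 5917 CPM in Dnmt1KO. Ccr2, the receptor by which monocytes follow CCL2, was at 498 and 682 CPM in Dnmt1fl/fl and at 376 and 594 CPM in Dnmt1KO, a gene named after its values were seen and one with fractional counts, so its reads may be shared with another gene. The neutrophil markers were also at their highest in Dnmt1KO replicate 1 (951 CPM), and neutrophils also express Hp and S100a6. Their part in these values was not tested.

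The later stage, antigen-presenting and small peritoneal macrophages, was represented by 16 genes, all tested. Dnmt1KO replicate 1 was the lowest sample in 13 of them, and that sample was lowest in 39.6% of all genes. B cells also express MHC class II genes, Cd74, Cd83 and Cd86, and 9 of the 10 B cell markers were lowest in the same sample, with sums of 189 CPM there and 425 to 654 CPM in the others. Their part in these values was not tested. H2-Aa, an MHC class II chain, was at 1539 and 1056 CPM in Dnmt1fl/fl and 679.9 and 1426 CPM in Dnmt1KO, and Cd74, the invariant chain, at 2745 and 1954 CPM in Dnmt1fl/fl and 1474 and 2580 CPM in Dnmt1KO. In both genes the genotypes overlapped. The costimulatory gene Cd86 was the 1 gene of the list with an unadjusted p under 0.05, at 41.3 and 43.6 CPM in Dnmt1fl/fl and 27.5 and 27.7 CPM in Dnmt1KO (log2 fold change -0.62, standard error 0.2, unadjusted p = 0.0216, adjusted p = 1.00, edgeR). Over all genes tested, 0.279% had an unadjusted p under 0.05. Of the 16, 6 had a log2 fold change above and 10 below 0, with a median of -0.19, which was 0.18 without Dnmt1KO replicate 1 and -0.65 without Dnmt1KO replicate 2. Cd86, Cd83 and Cd80 were the 3 whose Dnmt1KO samples were both below both controls, against 8.56% of all genes.

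Of 22 genes on a list of resident large peritoneal macrophages, all tested, 21 had a log2 fold change below 0, against 49.1% of all genes, with a median of -0.42. In 17 of the 22 the lowest sample was Dnmt1KO replicate 1, which was lowest in 39.6% of all genes. Both Dnmt1KO samples were below both controls in 5 of the 22, against 8.56% of all genes, and by edgeR 0 had an adjusted or an unadjusted p under 0.05. In that sample the neutrophil markers summed to 951 CPM, against 236 to 343 CPM in the others, and the B cell markers were at their lowest, and their part in these values was not tested. Without Dnmt1KO replicate 1, the median was -0.09 with 10 genes above and 12 below 0, and without Dnmt1KO replicate 2 it was -0.93. Without Dnmt1fl/fl replicate 1 it was -0.20. The list is not exclusive to resident cells, since it holds Adgre1, which macrophages share in general. Selp was at 20.8 and 15.4 CPM in Dnmt1fl/fl and 4.04 and 16.9 CPM in Dnmt1KO. It had fractional counts in all samples but Dnmt1KO replicate 1, so its reads may be shared with another gene. Of the 9 genes, 4 were above and 5 below 0. The difference between the lists was not tested.

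**Figure D5:**
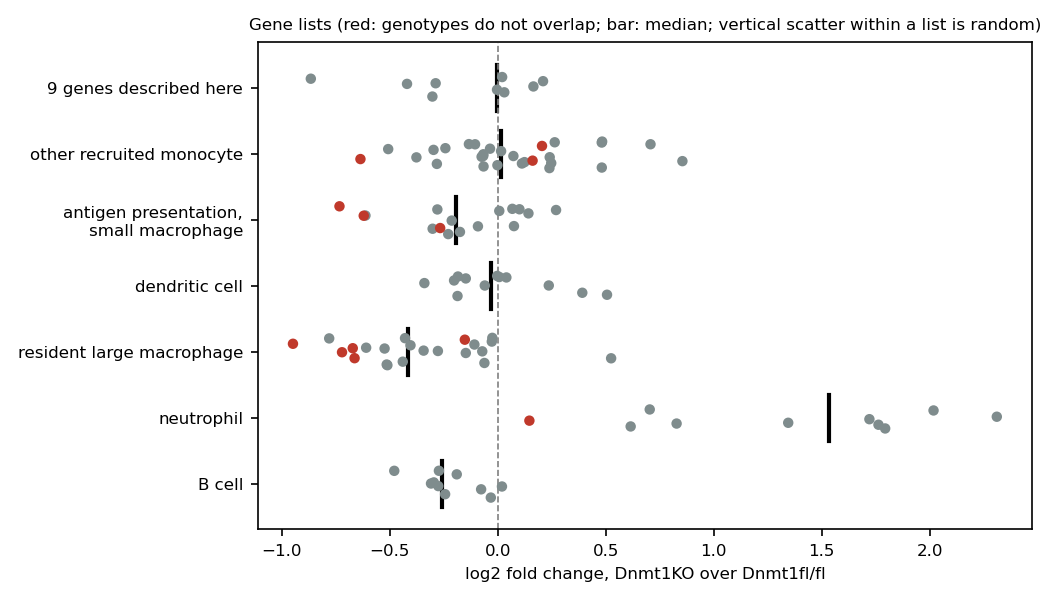
Log2 fold change of Dnmt1KO over Dnmt1fl/fl (horizontal axis) of the tested genes of 7 lists, with a bar at each list's median and red points where the genotypes do not overlap. The 9 genes and the other recruited monocyte genes lie around 0 (medians -0.00355 and 0.02), resident large macrophage genes at a median of -0.42 and neutrophil genes at 1.53, which were -0.09 and -0.51 without Dnmt1KO replicate 1.

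Of the remaining lists, IRF family genes, Irf4 included, had 4 of the 8 tested above and 4 below 0, and Irf7, an interferon-induced member, was at 76.3 and 248.5 CPM in Dnmt1fl/fl and 205 and 71.8 CPM in Dnmt1KO, high in the same samples as Ly6c2. Ly6e, the most abundant of the Ly6 family, was at 378 and 644 CPM in Dnmt1fl/fl and 726 and 433 CPM in Dnmt1KO, also high in those samples. T and NK cell markers were low, with all 12 summing to 38.4 to 62.5 CPM, mast cell and eosinophil markers to 17.8 to 26.6 CPM and mesothelial markers to 5.93 to 16.1 CPM. In the macrophage identity list, Lyz2 was the 1 of 10 with an unadjusted p under 0.05, which 0.279% of all genes had. This gene, whose promoter drives Cre in the Dnmt1KO mice, was at 29530 and 28590 CPM in Dnmt1fl/fl and 11350 and 15740 CPM in Dnmt1KO (log2 fold change -1.10, standard error 0.32, unadjusted p = 0.0145, adjusted p = 1.00, edgeR). Dnmt1KO mice alone carry Cre, and the part of the Cre allele in this value was not tested. Lyz2 and Lyz1 had fractional counts in all 4 samples, so their reads may be shared. Lyz1 ran the other way, at 369 and 378 CPM in Dnmt1fl/fl and 702 and 1230 CPM in Dnmt1KO (log2 fold change 1.37, standard error 0.33).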

How the data were processed

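Libraries were made with the NEBNext Ultra kit. The submitters' processing notes name HISAT2 2.0.5, featureCounts 1.5.0-p3 and DESeq2 1.20.0, and mm10 as the build. The authors deposited a table of estimated counts without normalization. Between 72.6% and 76.4% per sample were whole numbers, and how reads were shared between genes, the annotation and the use of strand are not given in the sources used here. The table lists genes above 0 in all 4 samples. A shorter deposited table repeats some of its rows and was not used. No sample was left out, and 8 symbols that occur more than once were kept as separate rows.

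Counts were rounded, filtered with filterByExpr, scaled with TMM and tested by quasi-likelihood in edgeR 4.0.16 (R 4.3.3). All p-values are two-sided, and adjusted p-values follow Benjamini and Hochberg across 12542 genes. Standard errors came from the log2 fold change and its F statistic, and confidence intervals from their t distribution. The common dispersion was 0.0837, a variation of 28.9% between replicates. An exact permutation test of 2 against 2 samples cannot give a two-sided p under 0.333, so none was run. At this depth 3 counts correspond to 0.12 to 0.151 CPM, counting error only. Genes and lists were chosen with earlier results of these data known. The genes to name were the 9, Dnmt1, for each list its 2 most abundant tested genes and the 2 with the largest absolute log2 fold change, and the 3 nearest in profile to Ly6c2 and to Irf4. Only those that bear on the 9 are given. Cd80, Sirpb1c, Napsa, Thbs1, Csf1r, Ccr2, Lyz1 and Pagr1a fall outside this rule and were named after their values were seen, as were genes named only as absent or as holding shared reads. The fit was tested on simulated data. Other settings tried were counts left unrounded, a replicate block, each sample left out in turn, a changed filter or scaling, and the tools limma-voom (limma 3.58.1) and DESeq2 1.42.0. Crossed pairing, sums of genes that share reads, lists with a sample left out and the other promoter windows were added after seeing the data. Lengths and positions are from GENCODE M21, by symbol, for 98.5% of the genes tested. Promoters of all 9 genes were matched by symbol in RefSeq.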

Additional observations from a re-analysis of the deposited data

How the results depend on the processing

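No alternative that used all 4 samples called any of the 9 genes, and the lowest adjusted p of a gene among them was 0.254 (Nr4a1, edgeR, crossed pairing, which was chosen after seeing the data). Over all genes, DESeq2 called 1 and the crossed pairing 3, against 0 in edgeR, and 35 had an unadjusted p under 0.05. Leaving out a sample, which leaves a lone sample assumed to vary like the other genotype, gave 0 called genes without Dnmt1KO replicate 1, 2 and 10 without Dnmt1fl/fl replicates 1 and 2, and 1061 without Dnmt1KO replicate 2, Dnmt1 among them (adjusted p = 0.02, edgeR). Of the 9, 0 to 2 were called (Irf4 and Cd209a without Dnmt1KO replicate 2), and 3 to 4 were above 0. Genotypes did not overlap in 1 to 8 of the 9, against 0 with all samples, but a lone sample overlaps less often: without Dnmt1fl/fl replicates 1 and 2 it was 2 and 1 of the 9, against 40.1% and 46.4% of all genes, and without Dnmt1KO replicates 1 and 2 it was 8 and 7 of the 9, against 64.6% and 82.8%.

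Log2 fold changes with a sample left out ran from -0.84 to 0.99 for Ly6c2, -0.90 to 0.80 for Plac8, -0.70 to 0.46 for F13a1, -0.42 to 0.36 for F10, -1.37 to 0.14 for Irf4, -1.84 to -0.29 for Nr4a1, -0.34 to 0.33 for Itgax, -0.44 to 0.59 for Flt3, -1.05 to 0.18 for Cd209a and -1.12 to -0.75 for Dnmt1. With the replicate block, 0 genes were called, 2 of the 9 were above 0, F10 was at -0.0156 and Itgax at -0.00115, and Nr4a1 was at -1.03 (unadjusted p = 0.0469, adjusted p = 1.00, edgeR). For the 9 genes and Dnmt1, the block changed no call at an adjusted p under 0.05. Whether same-numbered samples belong together is not stated. Their deviations from the genotype means correlated at -0.348 over 12542 genes. With 2 samples per genotype the crossed pairs must give the same size with the other sign (0.348), so this value cannot decide it. With the crossed pairing, 2 of the 9, Irf4 and Nr4a1, had an unadjusted p under 0.05 by edgeR, as had 297 of all genes, 2 of the 9 were above 0, F10 was at -0.0155 and Itgax at -0.000625. Limma-voom gave 2 above 0, with F10 at -0.00747 and Itgax at -0.00189. Nearer 0 with this tool than by edgeR were Ly6c2 (0.0695), Plac8 (-0.0592) and Flt3 (0.103). Further from 0 were Irf4 (-0.597), Nr4a1 (-1.05), Cd209a (-0.4) and F13a1 (-0.12). Scaling by total counts moved the median of all genes from 0.00457 to -0.0624 and gave 2 above 0, F10 at -0.0787, Itgax at -0.0612 and 1 of the 9, Nr4a1, without overlap, as in 16.5% of all genes. F13a1 was at 0.00154 with DESeq2, 0.0000615 with no filter and 0.00159 with the size factors of DESeq2 in edgeR. The causes were not tested.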
